A study of Homo sapiens with 12 samples.

Results

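Nonmuscle myosin II is the motor that pulls on actin filaments in cells outside striated muscle. Each molecule is built from a pair of heavy chains, which hold the motor head and the coiled tail, a pair of essential light chains and a pair of regulatory light chains. The genes described here are its 6 standard subunit genes, taken by symbol from the deposited RNA tables of 20114 gene symbols: the heavy chains MYH9, MYH10 and MYH14, which give the isoforms II-A, II-B and II-C, the essential light chain MYL6, and the regulatory light chains MYL12A and MYL12B. MYH14 had been singled out because its RNA was among the largest rises between these same libraries, so the differences of the members between the lines are given as a description, with no p-value.

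RNA was measured in 2 cabozantinib-resistant and 2 parental libraries of Caki-1, a long-established line of human kidney cancer cells whose parental form the labels call wild-type. Cabozantinib blocks several receptor tyrosine kinases, among them the VEGF receptors, AXL and MET. The resistant line was grown in 5 µM of the drug, raised to 20 µM over 2 months, and then kept in 10 µM. It was selected in McCoy's 5A medium, while RPMI medium served for the parental cells, both with fetal bovine serum, so drug, medium and selection cannot be told apart. The labels describe 1 resistant line and do not say that replicates were separate cultures, so every spread given here may be technical. The other samples of the series, 4 H3K27ac libraries and 4 inputs of 12 samples in all, were not used here.

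The isoforms share a mechanism and differ in how they are used. The kinase ROCK and myosin light chain kinase act on the regulatory light chain, whose phosphorylation lets myosin assemble into filaments and pull, and myosin phosphatase reverses it. Isoform II-A is known for fast contraction and migration, and II-B for sustained tension. Isoform II-C is found mainly in epithelia, where it lies at apical junctions, and inherited changes in MYH14 cause hearing loss in humans. In the kidney, MYH9 is known for its part in the podocyte.

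Sequencing depth was 14664723 and 12851393 estimated counts in the resistant line, against 10605113 and 10584083 in the parental line. The resistant libraries differed from each other far more than the parental libraries did, with a mean chi-square statistic per gene of 48.4 in the resistant pair and 1.95 in the parental pair. Levels are given in TPM, a transcript abundance that is scaled by transcript length and can be compared between genes, or in CPM, read counts scaled to library size by TMM, which is not divided by length and serves for comparisons between libraries. By the quasi-likelihood F test of edgeR, adjusted after Benjamini and Hochberg, 2.96% of 12792 genes tested were called higher in the resistant line and 3.41% lower at a threshold of 0.05 (6.37% in all, 379 and 436 genes, and 531 and 373 with library totals in place of TMM). Of 6 tested among 9 renal markers, 1 lay higher and 2 lay lower without overlap in CPM. Of all genes tested, 30.9% lay above and 29.7% below in the same way. Their summed level was 3211 and 3004 TPM in resistant libraries and 4236 and 4169 TPM in parental libraries. Most of that sum was VIM, at 2390 and 2084 TPM in resistant libraries and 3259 and 3225 TPM in parental libraries. PAX8 was expressed, and PAX2 and LRP2 were listed at 0 in every library. Of 9 muscle markers 0 passed the filter on low counts, their summed level was 0.75 and 0.21 TPM in resistant libraries and 0.06 and 0.88 TPM in parental libraries, and MYOD1 and TNNT2 were listed at 0 in all 4. Of 9 markers of blood, endothelium and stroma 4 were tested and 2 called lower, and CD3E and CDH5 were listed at 0. Their summed level was 46.8 and 39.5 TPM in resistant libraries and 90.2 and 91.8 TPM in parental libraries. Most of that sum was CD68 in every library. The sum moved the same way as MYL9, MYLK and ACTG1 described later, and its part in those results was not tested. The called markers were DCN, decorin, at 1.92 and 0.33 TPM in resistant libraries against 9.23 and 10.98 TPM in parental libraries (edgeR adjusted p = 0.0129, and 0.0641 with limma-trend on log2(TPM + 0.1)), and CD68, a lysosomal protein, at 38.8 and 30.6 TPM in resistant libraries against 68.4 and 70.3 TPM in parental libraries (edgeR adjusted p = 0.0208, and 0.130 and 0.187 without parental replicate 1 or 2).

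The heavy chain genes lie on separate chromosomes, and their start regions are shown as a description. A link between these sequences and the levels in the lines was not tested. Each sequence runs 5′ to 3′ on the strand of the gene, from 250 bases before the start to 50 bases after it, is credited to RefSeq on GRCh38.p14, and has CCAAT or its reverse complement ATTGG in capitals.
MYH14, chr19:50203372-50203671, plus strand: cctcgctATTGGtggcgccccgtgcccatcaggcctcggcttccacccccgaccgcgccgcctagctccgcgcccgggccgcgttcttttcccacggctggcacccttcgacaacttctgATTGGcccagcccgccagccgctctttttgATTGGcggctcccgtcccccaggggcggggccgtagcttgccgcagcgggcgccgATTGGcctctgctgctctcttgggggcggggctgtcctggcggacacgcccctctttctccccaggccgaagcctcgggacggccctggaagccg
MYH10, chr17:8630676-8630975, minus strand: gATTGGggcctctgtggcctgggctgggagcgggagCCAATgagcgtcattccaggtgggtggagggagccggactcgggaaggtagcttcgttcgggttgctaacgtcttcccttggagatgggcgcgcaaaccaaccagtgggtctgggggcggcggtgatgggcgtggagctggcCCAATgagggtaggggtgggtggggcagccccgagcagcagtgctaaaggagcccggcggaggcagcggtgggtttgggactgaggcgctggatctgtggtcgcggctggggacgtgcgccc
MYH9, chr22:36387918-36388217, minus strand: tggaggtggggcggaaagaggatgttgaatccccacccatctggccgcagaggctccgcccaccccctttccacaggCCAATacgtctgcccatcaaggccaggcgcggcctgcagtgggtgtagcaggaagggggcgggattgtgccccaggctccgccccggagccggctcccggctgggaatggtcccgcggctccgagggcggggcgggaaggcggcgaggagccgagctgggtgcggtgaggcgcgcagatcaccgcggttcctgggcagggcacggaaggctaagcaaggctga

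CCAAT on either strand occurred 4 times in the MYH14 window, 3 times in the MYH10 window and 1 time in the MYH9 window. Of all 35116 windows of this length in the RefSeq table, 34.6% held at least 1 match, 3.26% at least 3 and 0.991% at least 4. GGGCGG or its reverse complement CCGCCC occurred 2 times at MYH14, 1 time at MYH10 and 6 times at MYH9, overlapping none of the CCAAT matches. Of all windows, 45.0% held at least 1 of these matches, 15.8% at least 3 and 9.06% at least 4. The letters TATAAA and TTTATA were in none of the 3 windows and in 11.5% of all windows. The GC content was 71.7% at MYH14, 67.7% at MYH10 and 70.3% at MYH9. All of these are letter matches and describe no binding. The motifs were picked after the windows had been read.

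MYH14, the heavy chain of isoform II-C, was the rarest subunit in every library. It stood at 2.08 and 1.29 TPM in resistant libraries, against 0.15 and 0.11 TPM in parental libraries. These levels rest on 157 and 99 estimated counts in resistant libraries and on 8 and 6 in parental libraries. Both resistant libraries were far above both parental ones. In TMM-scaled counts MYH14 was 8.92 ± 1.74 CPM in the resistant line and 0.680 ± 0.140 CPM in the parental line (SD, n = 2 each), a log2 fold change of 3.70 ± 0.36 (SE). The ratio of the pooled counts, 256 against 14, was 13.3, with an exact 95% binomial interval of 7.77 to 24.6 that covers counting error only. By this fold change it ranked 22 from the top of 12792 genes, which is the value it was chosen by. By level it ranked 11277 of 20114 in the resistant line and 14013 in the parental line.

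MYH9, the heavy chain of isoform II-A, was the main heavy chain throughout. It stood at 252.5 and 152.9 TPM in resistant libraries, against 305.9 and 289.0 TPM in parental libraries. Both resistant libraries were lower than both parental ones, and the resistant libraries lay further from each other than resistant replicate 1 lay from the parental line. In TMM-scaled counts MYH9 was 1183 ± 252 CPM in the resistant line and 1703 ± 50.7 CPM in the parental line (SD, n = 2 each), a log2 fold change of -0.53 ± 0.19 (SE). That fold change was -0.33 without resistant replicate 2, -0.76 without resistant replicate 1 and -0.29 after a correction for transcript length.

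MYH10, the heavy chain of isoform II-B, stood at 20.8 and 12.6 TPM in resistant libraries, against 18.8 and 19.1 TPM in parental libraries. The resistant libraries lay on either side of the parental ones, so the lines overlapped. Its log2 fold change was -0.13 ± 0.17 (SE), smaller than its own error, and it turned to 0.03 without resistant replicate 2 and to 0.10 after length correction.

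Of the 6 members, all of which passed the filter on low counts, 1 was called higher and 5 were not called, beside a background of 2.96% higher and 3.41% lower. Nothing is read from that count, since the same contrast chose MYH14. On the CPM scale MYH14 lay above without overlap, MYH9 lay below without overlap and the other 4 overlapped, where 30.9% of all genes tested lay above and 29.7% below (60.6% in all). On the TPM scale MYL6, MYL12A and MYL12B lay below as well, making 4 of 6, with 28.5% of all genes tested below and 27.1% above.

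**Figure D1:**
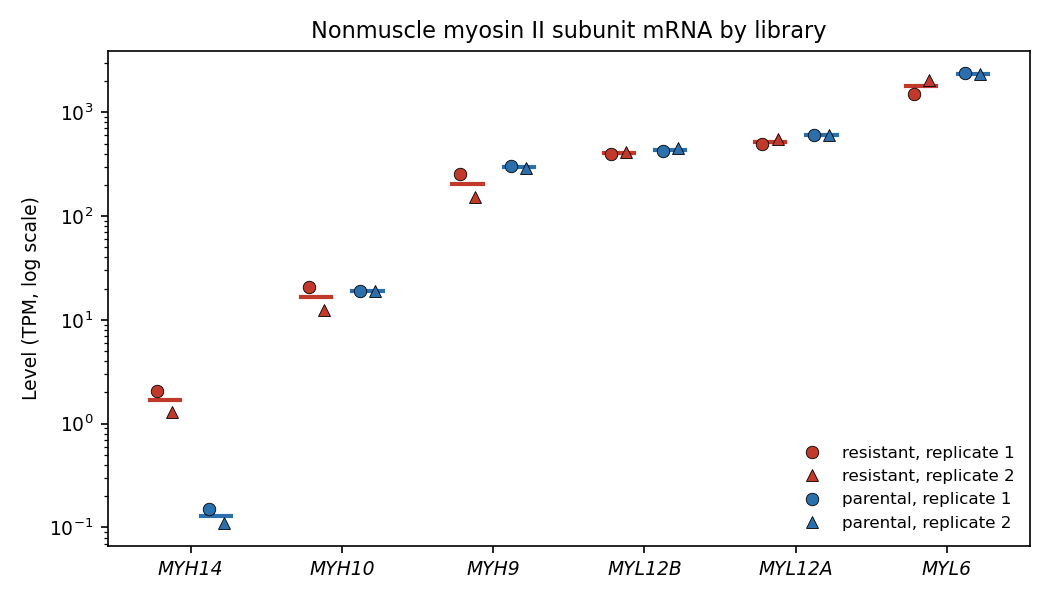
Level of each subunit mRNA in TPM (log axis) in the 4 RNA libraries, with circles for replicate 1, triangles for replicate 2 and bars for the mean of each line. MYH14 stands at 2.08 and 1.29 TPM in resistant libraries against 0.15 and 0.11 TPM in parental libraries, while the other 5 genes keep their order of magnitude.

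Within each library the order of the 6 levels in TPM was the same, with MYH14 lowest, then MYH10, MYH9, MYL12B, MYL12A and MYL6. Neighbours in that order did not overlap over the 4 libraries.

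The balance of the heavy chains differed between the lines in a way that the single levels hide. MYH14 made up 0.755% and 0.773% of the summed heavy chain TPM in resistant libraries, against 0.0462% and 0.0357% in parental libraries. MYH10 made up 7.56% and 7.55% in resistant libraries, against 5.79% and 6.19% in parental libraries. MYH9 made up 91.69% and 91.68% in resistant libraries, against 94.2% and 93.8% in parental libraries. For each of the 3 heavy chains the lines did not overlap. The TPM shares in the resistant libraries lay within 0.0182 percentage points of each other, although summed heavy chain TPM was 275.4 and 166.8. For MYH10 and MYH9 this closeness held in TPM only. MYH10 held 1663 of 22876 heavy chain counts in resistant replicate 1 and 1075 of 14107 in replicate 2, shares that lie further apart. Its effective length relative to that of MYH9 was 0.958 and 1.01 in the same libraries.

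As means, MYH14 had a share of 0.764% ± 0.0128 in the resistant line and 0.0409% ± 0.00742 in the parental line (SD, n = 2 each). MYH10 averaged 7.55% ± 0.00556 in the resistant line and 5.99% ± 0.283 in the parental line. MYH9 averaged 91.7% ± 0.00728 in the resistant line and 94.0% ± 0.276 in the parental line. The difference in share, resistant minus parental, was thus 0.723 percentage points for MYH14, 1.56 points for MYH10 and -2.28 points for MYH9. The larger counterpart of the MYH9 difference was MYH10, whose own level overlapped between the lines, and the smaller was MYH14. Put as ratios, there were 12.1 and 12.1 MYH9 transcripts per MYH10 transcript in resistant libraries, against 16.3 and 15.1 in parental libraries. For each MYH14 transcript there were 10.0 and 9.76 of MYH10 in resistant libraries, against 125.5 and 173.5 in parental libraries. MYH9 was the main heavy chain in each library.

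**Figure D2:**
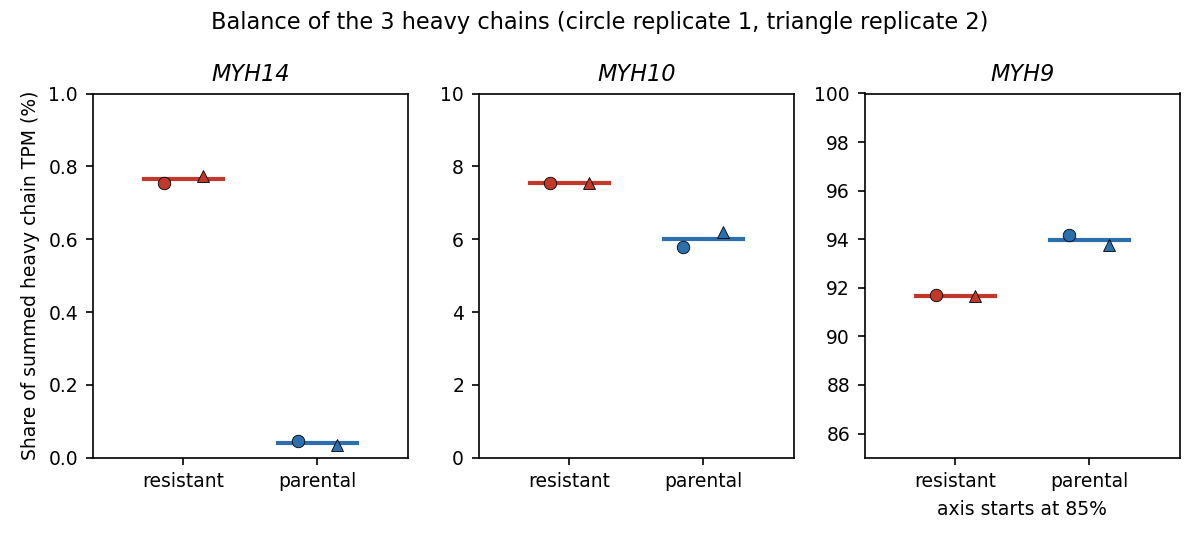
Share of MYH14, MYH10 and MYH9 in the summed TPM of the 3 heavy chains (percent) in the 4 RNA libraries, with bars for the mean of each line; the panel of MYH9 starts at 85%. MYH14 and MYH10 hold larger shares in both resistant libraries and MYH9 a smaller one. The resistant points lie almost on top of each other on this TPM scale, and less so in counts for MYH10 and MYH9.

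In counts without division by length, MYH14 was 0.686% of the heavy chain counts in resistant replicate 1 (exact 95% binomial interval 0.583 to 0.802%) and 0.702% in resistant replicate 2 (0.571 to 0.854%). In the parental line it was 0.0422% in replicate 1 (0.0182 to 0.0832%) and 0.0328% in replicate 2 (0.0120 to 0.0714%). The intervals cover counting error only, and the same libraries chose the gene. The effective length behind the TPM of MYH14, relative to that of MYH9, was 0.905 and 0.907 in resistant libraries and 0.913 and 0.916 in parental libraries. The parental lengths rest on 8 and 6 estimated counts at 0.15 and 0.11 TPM. With such rounded values a small difference in length between the lines cannot be told.

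MYL6, the essential light chain, which stabilises the lever arm of each head, was the most abundant subunit. It stood at 1515 and 2068 TPM in resistant libraries, against 2379 and 2329 TPM in parental libraries. The resistant libraries were lower on this scale and spread widely, and in TMM-scaled counts they overlapped the parental ones. The log2 fold change was -0.31 ± 0.25 (SE), and it was -0.73 without resistant replicate 2, 0.01 without resistant replicate 1 and -0.55 after length correction. MYL6B, the close relative of MYL6 used in slow muscle and at low level elsewhere, stood at 133.5 and 151.6 TPM in resistant libraries and 140.2 and 129.4 TPM in parental libraries. The share of MYL6B in the sum of the pair was 8.10% and 6.83% in resistant libraries, against 5.57% and 5.26% in parental libraries.

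MYL12A and MYL12B encode nearly identical regulatory light chains that carry the phosphorylated site, and the authors' counting may split reads between them, so the split is uncertain. MYL12A stood at 494.8 and 548.3 TPM in resistant libraries, against 598.6 and 606.8 TPM in parental libraries. MYL12B stood at 398.5 and 415.3 TPM in resistant libraries, against 424.0 and 452.3 TPM in parental libraries. Their log2 fold changes were -0.15 ± 0.18 and -0.05 ± 0.17 (SE), both smaller than the error, and in TMM-scaled counts the lines overlapped for each gene. Without resistant replicate 1 the log2 fold changes turned to 0.04 for MYL12A and 0.12 for MYL12B, and MYL12B also turned to 0.03 with library totals. After length correction they were -0.39 and -0.28. MYL12A held 55.4% and 56.9% of the sum of the pair in resistant libraries, against 58.5% and 57.3% in parental libraries.

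A further regulatory light chain, MYL9, which is typical of smooth muscle and also serves nonmuscle myosin, was measured among the other light chains of conventional myosins. It fell to 93.5 and 96.0 TPM in resistant libraries, against 252.5 and 265.8 TPM in parental libraries (log2 fold change -1.40 ± 0.17, SE, edgeR adjusted p = 0.0129). MYL9 was called in each of the 13 alternatives, with an adjusted p between 1.71e-08 and 0.0154. It made up 9.48% and 9.06% of the summed TPM of MYL9, MYL12A and MYL12B in resistant libraries, against 19.8% and 20.1% in parental libraries. MYL12A held 50.1% and 51.7% of that sum in resistant libraries, against 46.9% and 45.8% in parental libraries. MYL12B held 40.4% and 39.2% of it in resistant libraries, against 33.3% and 34.1% in parental libraries. The sum itself was 986.8 and 1060 TPM in resistant libraries, against 1275 and 1325 TPM in parental libraries.

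**Figure D3:**
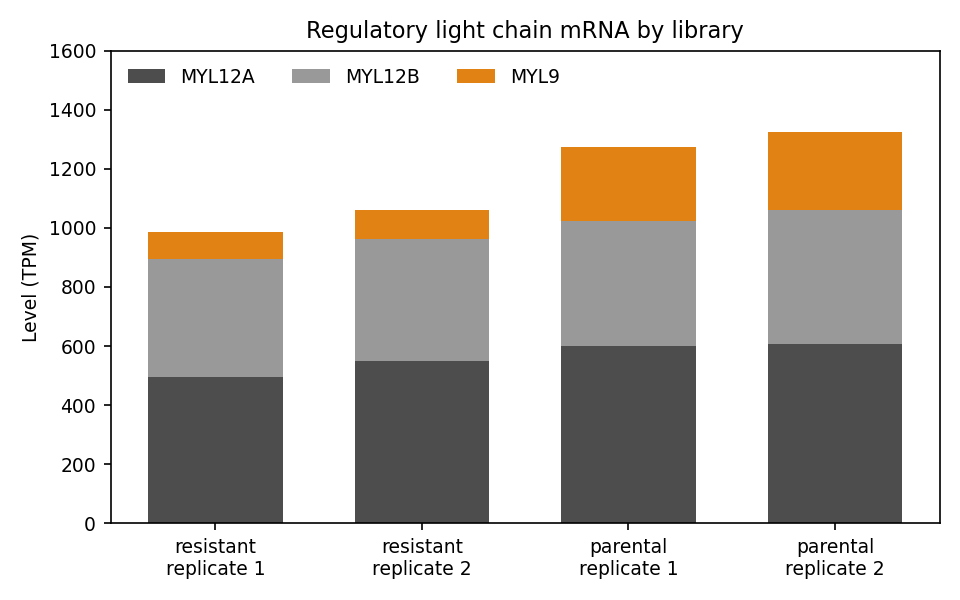
Level in TPM of the regulatory light chains MYL12A, MYL12B and MYL9, stacked, in each RNA library. The MYL9 part is 93.5 and 96.0 TPM in resistant libraries against 252.5 and 265.8 TPM in parental libraries, while MYL12A and MYL12B change less.

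The difference between the resistant libraries ran with transcript length, and the subunits sit at both ends of that range. The heavy chains are long, at the 95.2 (MYH9), 94.7 (MYH10) and 93.6 (MYH14) percentile of 12477 genes by effective length, and the light chains short, at the 1.61 (MYL6), 8.09 (MYL12A) and 10.2 (MYL12B) percentile. In resistant replicate 2 minus replicate 1, the log2 difference in CPM was -0.44 for MYH9, -0.36 for MYH10 and -0.40 for MYH14. It was 0.73 for MYL6, 0.40 for MYL12A and 0.35 for MYL12B. All 3 heavy chains were thus lower and all 3 light chains higher in resistant replicate 2.

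Over all genes the median of that difference was 0.50 in the shortest decile of genes and -0.51 in the longest decile. In the parental pair the medians of the shortest and longest deciles were both -0.01. Between the lines, the median log2 fold change was 0.24 in the shortest decile and -0.22 in the longest, beside 0.02 over all genes. The part of this gradient in the fold changes of MYH9 and the light chains was not tested beyond the length correction given above. MYH14 had a log2 fold change of 3.91 after that correction.

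**Figure D4:**
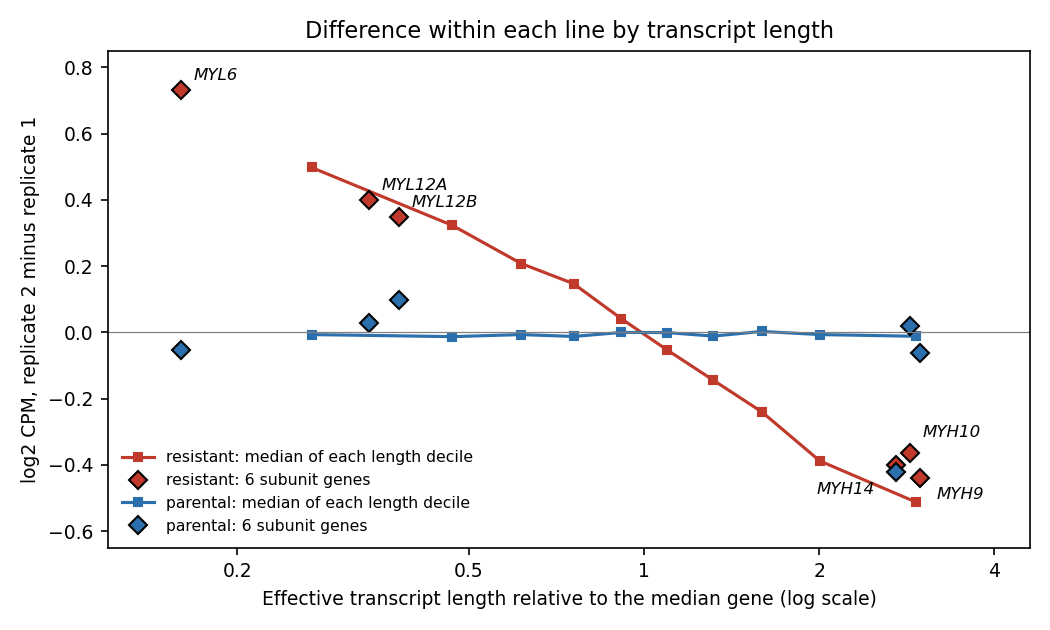
Difference in log2 CPM between replicate 2 and replicate 1 of each line against effective transcript length relative to the median gene (log axis), with squares for the median of each decile of genes and diamonds for the 6 subunit genes. In the resistant pair the heavy chains lie near -0.4 and the light chains between 0.35 and 0.73, and the parental medians lie at 0.

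The ratio of light to heavy chains spread widely between the resistant libraries. There were 5.50 and 12.4 MYL6 transcripts per heavy chain transcript in resistant libraries, against 7.32 and 7.56 in parental libraries. MYL12A and MYL12B together came to 3.24 and 5.78 per heavy chain transcript in resistant libraries, against 3.15 and 3.44 in parental libraries. The resistant libraries spanned the parental values of MYL6, and overlapped those of the regulatory chains.

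The genes around the motor were taken from 7 lists with 93 entries, of which 60 were tested. The lists, with MYL9 in 1 of them, were chosen with earlier results of these data known. Adjusted p-values of their genes thus describe these libraries and are no independent evidence. Over these lists 3 were called higher and 6 lower, which is 5.0% and 10.0% of the tested genes beside the background of 2.96% and 3.41%. Nothing particular to the lists is drawn from this, and 30 of the 60 had an unadjusted p under 0.05, beside 3455 of all 12792 genes. Of the 11 other conventional heavy chains analysed, 7 were listed at 0 in all 4 libraries. The smooth muscle heavy chain MYH11 stood at 0.08 and 0.01 TPM in resistant libraries and was listed at 0 in both parental ones. The only one tested, MYH15, had a log2 fold change of 1.46 ± 0.58 (SE, edgeR adjusted p = 0.173).

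Of 10 tested kinases of the regulatory light chain, 1 fell and 9 did not pass (median log2 fold change -0.32, beside 0.02 over all genes). Most of these kinases have long transcripts, and the longest decile of genes had a median of -0.22. MYLK, the calmodulin-dependent myosin light chain kinase, fell to 30.9 and 16.7 TPM in resistant libraries, against 60.3 and 54.1 TPM in parental libraries (log2 fold change -1.28 ± 0.18, SE, edgeR adjusted p = 0.0199). Its log2 fold change was -1.08 after length correction. The call of MYLK ended on the TPM scale with limma-trend (adjusted p = 0.0675 and 0.0766 at pseudocounts of 1 and 0.1). ROCK1 and ROCK2, which phosphorylate the regulatory light chain and the phosphatase, had log2 fold changes of -0.11 ± 0.30 and -0.69 ± 0.21 (SE) and were not called.

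Of 8 tested genes of myosin phosphatase, 1 fell and 7 did not pass (median log2 fold change -0.46). PPP1R14A, an inhibitor of the phosphatase also called CPI-17, fell to 0.67 and 0.99 TPM in resistant libraries, against 5.24 and 6.52 TPM in parental libraries (log2 fold change -2.96 ± 0.52, SE, edgeR adjusted p = 0.0311, and 0.112 without parental replicate 2). The levels of PPP1R14A rest on low counts, 3 and 5 in resistant libraries against 21 and 26 in parental libraries. PPP1R12A, the targeting subunit that brings the phosphatase to myosin, had a log2 fold change of -0.62 ± 0.23 and was not called. PPP1R14B, a relative of PPP1R14A and the most abundant gene of the list, had one of 0.20 ± 0.22 and was not called.

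Of 10 tested genes for assembly and placing of the heavy chains, 2 rose, 1 fell and 7 did not pass (median log2 fold change 0.12). SHROOM2, a Shroom family actin-binding protein linked to contractility at cell junctions, rose to 3.06 and 2.22 TPM in resistant libraries, against 0.55 and 0.58 TPM in parental libraries (log2 fold change 2.26 ± 0.23, SE, edgeR adjusted p = 0.00918). LLGL2, a polarity protein of the lethal giant larvae family, which binds myosin II in Drosophila, rose to 22.9 and 22.6 TPM in resistant libraries, against 8.26 and 8.36 TPM in parental libraries (log2 fold change 1.45 ± 0.18, SE, edgeR adjusted p = 0.0131), and was called in each of the 13 alternatives. LIMCH1, an activator of isoform II-A, fell to 26.5 and 13.5 TPM in resistant libraries, against 40.3 and 48.3 TPM in parental libraries (log2 fold change -1.10 ± 0.22, SE, edgeR adjusted p = 0.0439). SHROOM2 missed the threshold in 1 alternative, limma-trend on log2(TPM + 0.1) (adjusted p = 0.0571). LIMCH1 missed it without parental replicate 1 (0.0713), without parental replicate 2 (0.120), with library totals (0.0579) and on the TPM scale (0.0989 and 0.110 at pseudocounts of 1 and 0.1). S100A4, a calcium-binding protein that takes II-A filaments apart, stood at 11.9 and 16.0 TPM in resistant libraries and 4.08 and 2.55 TPM in parental libraries (edgeR adjusted p = 0.0600, not called).

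Of 14 tested actin filament partners, 1 rose, 1 fell and 12 did not pass (median log2 fold change 0.04). ACTG1, the cytoplasmic gamma actin, fell to 3833 and 2819 TPM in resistant libraries, against 6064 and 5916 TPM in parental libraries (log2 fold change -0.72 ± 0.15, SE, edgeR adjusted p = 0.0482). ACTB, the cytoplasmic beta actin, stood at 3336 and 3256 TPM in resistant libraries and 2444 and 2484 TPM in parental libraries, a log2 fold change of 0.48 ± 0.16 (SE) that was not called. Actin genes share near-identical sequence with each other and with pseudogenes, so both are uncertain. ANLN, anillin, which binds myosin II and actin in the contractile ring of dividing cells, rose to 20.6 and 16.9 TPM in resistant libraries, against 9.30 and 10.6 TPM in parental libraries (log2 fold change 0.91 ± 0.16, SE, edgeR adjusted p = 0.0316). Neither call stood without parental replicate 1 (adjusted p = 0.596 for ACTG1 and 0.477 for ANLN) or without parental replicate 2 (0.562 and 0.230). ACTG1 also missed the threshold with limma-voom (0.0553) and on the TPM scale (0.0551 and 0.0571), and ANLN on the TPM scale (0.0859 and 0.0862).

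**Figure D5:**
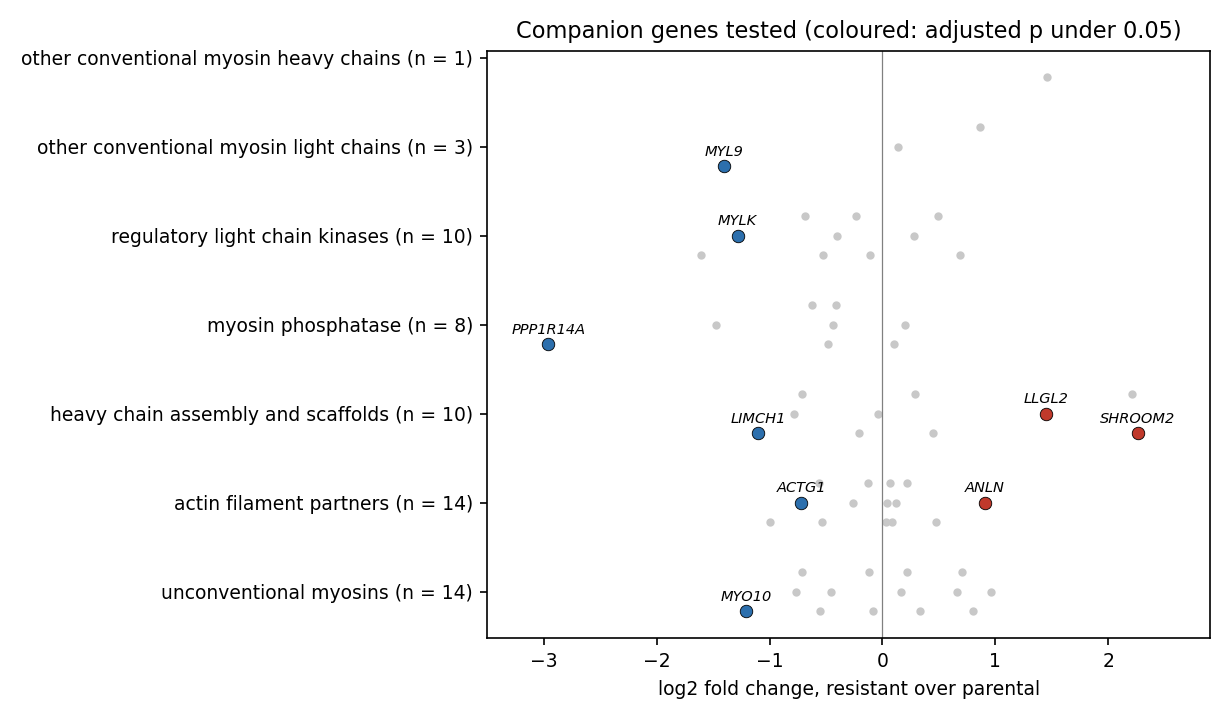
log2 fold change, resistant over parental, of the 60 tested genes in the 7 lists around nonmuscle myosin II, with genes at an edgeR adjusted p under 0.05 in colour and named. The called genes are 3 higher and 6 lower, with PPP1R14A lowest at -2.96 and SHROOM2 highest at 2.26.

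The genes whose pattern over the 4 libraries lay nearest to that of MYH14, by the distance between log2(CPM + 0.5) values set against the parental mean, were GPC4 (distance 0.251), TRIM6-TRIM34 (0.395), CHI3L1 (0.396), CPVL (0.422) and LIN7A (0.446). GPC4, a glypican of the cell surface, stood at 1.51 and 1.37 TPM in resistant libraries, against 0.03 and 0.08 TPM in parental libraries. Its parental values rest on 1 estimated count each. CHI3L1, a secreted chitinase-like glycoprotein, stood at 94.9 and 86.3 TPM in resistant libraries, against 12.1 and 11.2 TPM in parental libraries. LIN7A, a scaffold of cell polarity, stood at 8.79 and 7.10 TPM in resistant libraries, against 1.40 and 1.06 TPM in parental libraries. TRIM6-TRIM34 joins neighbouring genes in a read-through transcript, so its counts are uncertain, and it held 0 counts in both parental libraries. The offset of 0.5 shrinks differences at such low counts. The log2 fold changes of GPC4 and TRIM6-TRIM34, 5.34 and 8.22, were larger than the 3.70 of MYH14. These genes were picked by likeness over 4 libraries, so their differences are a description.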

How the data were processed

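Samples were grouped by their titles. Per the submitters' processing notes, STAR, RSEM and DESeq2 1.40.2 were used with GRCh38 and hg19, without roles. The deposited tables give RSEM estimated counts and TPM made by the authors. Counts, of which 3.16% were fractional, were rounded. Genes kept by filterByExpr (12792) were scaled by TMM and tested in edgeR 4.0.16 (R 4.3.3) by the quasi-likelihood F test with Benjamini-Hochberg adjustment, line as the only term. The SE is the log2 fold change divided by the square root of F. The test was checked on simulated data with the same spread in both lines and no length trend. That check does not cover the wider spread and length trend of the resistant pair.

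The members and lists were chosen with earlier results of these data known, and members have no p. Named genes were the members, the calls of each list or its most abundant members, the 5 patterns nearest to MYH14, and the 5 tested genes on each side of each heavy chain gene. S100A4, the ROCKs, PPP1R12A, PPP1R14B, ACTB, MYH11 and MYL6B were named after their values were seen.

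Effective length is estimated counts per TPM, scaled to the median gene, for genes with 20 counts or more. Length correction entered a lowess trend (span 0.3) per library as offsets. The alternatives planned were library totals or DESeq2 size factors for scaling, every gene with 1 count, DESeq2 1.42.0, limma-voom (limma 3.58.1), limma-trend with TPM pseudocounts of 1 or 0.1 where 2 libraries reached 1 TPM, a replicate block, and leaving out each library. The H3K27ac peaks planned as a second measure were not used here, since their coordinates were read as hg19 and the gene table is GRCh38. That table served for gene order, and 12593 tested genes matched it. MYH16 and PECAM1 were not analysed here, and 2 of the planned lists and some single genes are not reported here.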

Additional observations from a re-analysis of the deposited data

How the results depend on the processing

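The shares of the heavy chains kept their direction under all 7 alternatives. The difference in the share of MYH14 was 0.66 percentage points in counts not divided by length, and 0.714 to 0.732 when 1 library was left out, beside 1.36 to 1.76 for MYH10 and -2.48 to -2.09 for MYH9. The log2 fold change of MYH14 ranged from 1.23 on the log2(TPM + 1) scale, and 2.93 on the log2(TPM + 0.1) scale, to 3.91. The pseudocount is large beside its parental level.

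The counts of higher and lower genes were 609 and 737 with DESeq2, 243 and 282 with limma-trend on log2(TPM + 1), 217 and 243 on log2(TPM + 0.1), 860 and 1020 with a replicate block, and 980 and 1221 after length correction. In the companion lists they were 4 and 10 with DESeq2, 3 and 2 on log2(TPM + 1), 2 and 2 on log2(TPM + 0.1), 5 and 14 with the replicate block, and 7 and 16 after length correction, which was added after seeing the data. Leaving out 1 library gave 141 to 3374 higher and 264 to 3479 lower genes (2 to 12 and 3 to 30 in the lists). The high ends came without resistant replicate 1 and the low ends without a parental library, with the spread then taken from the line that keeps its pair. Library totals moved the median of all genes to 0.10, with MYH10 at -0.04. Deviations of same-numbered replicates were hardly correlated (r = -0.0478). With 2 libraries per line that value cannot exclude a pairing of same-numbered replicates. The low counts of MYH14 in the parental line limit the precision of its ratio.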

Other observations

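Outside the conventional myosins, 14 unconventional myosins were tested, of which 1 fell and 13 did not pass (median log2 fold change 0.04, beside 0.02 over all genes). MYO10, a motor of filopodia, fell to 21.2 and 12.7 TPM in resistant libraries, against 40.9 and 36.9 TPM in parental libraries (log2 fold change -1.21 ± 0.21, SE, edgeR adjusted p = 0.0304). The call of MYO10 ended without parental replicate 1 (adjusted p = 0.0626) and on the TPM scale (0.0638 and 0.0710).

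Around MYH14 on chromosome 19, the 10 nearest tested genes had a median log2 fold change of -0.36. Of these, 1 was called higher and 2 lower, beside 2.96% and 3.41% of all genes tested. ATF5, a stress-responsive transcription factor, rose (log2 fold change 0.82 ± 0.15, SE, edgeR adjusted p = 0.0332), and NR1H2, the liver X receptor beta, and EMC10, a subunit of the ER membrane complex, fell (-0.81 ± 0.16 and -1.60 ± 0.20, adjusted p = 0.0422 and 0.0132). The calls of ATF5 and NR1H2 ended without parental replicate 1 (adjusted p = 0.470 and 0.417) and without parental replicate 2 (0.435 and 0.312), and that of ATF5 also on the TPM scale (0.0991 and 0.105). The immediate neighbour ZNF473, at -0.55 ± 0.23 (SE) on the log2 scale, was not called. Around MYH9 on chromosome 22 the 10 nearest tested genes had a median log2 fold change of 0.28, with a range of -0.51 to 0.95. Around MYH10 on chromosome 17 the median was -0.13, with a range of -0.76 to 0.51. Of the neighbours of MYH9 and of MYH10, 0 were called in either direction.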
